A study of Mus musculus with 18 samples.

Results

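The CpG sites described here were strongly methylated in gonadal fat and weakly methylated in both hypothalamus and liver of young male mice. They were chosen by their measured levels: a CpG on chromosomes 1 to 19 had to be covered by at least 20 reads in each of 6 pools of reads, with a level of at least 65% in adipose tissue and of at most 35% in hypothalamus and in liver. The level of a tissue is the read-weighted mean of its pools. Of 1275720 CpGs with enough reads, termed eligible below, 237 met the rule, or 18.6 per 100000. Mirrored rules found more CpGs in every other direction: 2102 were low only in adipose tissue, 1294 were high only in hypothalamus, 1710 were low only in hypothalamus, 1436 were high only in liver and 5748 were low only in liver.

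DNA methylation was read by reduced representation bisulfite sequencing (RRBS), in which MspI cuts DNA at CCGG and bisulfite converts unmethylated cytosines, so that single CpGs in CpG-rich fragments are scored. The 18 samples came from male C57BL/6 offspring aged 3 weeks, 3 per treatment and tissue. The exposed offspring, from 4 litters, were born to dams given bisphenol A (BPA), a building block of polycarbonate plastic that binds oestrogen receptors weakly, at 5 mg per kg per day in corn oil by gavage on days 1 to 20 after conception. Control offspring, from 3 litters, were born to dams given corn oil alone. All mice were bred on a diet certified low in isoflavones and, during dosing, kept in cages and with bottles free of polycarbonate, and litters were not used here as a term.

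The values used here join the 3 samples of a group, so each tissue has a BPA pool and a control pool and no value carries an error between animals. The pools are numbered in the tables, and they were read as control and BPA only from the order in which a label of the samples names the groups. If that order were reversed, every difference between BPA and control below would change sign, while levels of both pools joined would stay. Sites listed had a median of 164 and 144 reads in the BPA and control pools of adipose tissue, 98 and 93 in hypothalamus, and 127 and 136 in liver. As a check of the tissue labels, CpGs of the marker genes of each tissue's main cell type were on average lowest in that tissue for 8 of 15 adipocyte genes in adipose tissue, 12 of 20 neuron genes in hypothalamus and 13 of 17 hepatocyte genes in liver. The median over the adipocyte genes was 68.9% in adipose tissue, 82.5% in hypothalamus and 66.6% in liver, so by the median these markers did not set adipose tissue apart from liver. Adipose tissue also had the lowest levels of the 3 tissues at 9 of 16 endothelial and 10 of 18 leukocyte genes, and how cell types other than adipocytes bear on the levels below was not tested.

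Methyl groups on CpGs are copied to the new strand when DNA is replicated, and unmethylated CpG islands usually lie at the starts of active or poised genes. Hox genes encode transcription factors that give cells their place along the body axis. They lie in 4 clusters held in a poised, mostly unmethylated state by Polycomb proteins where they are silent, and the forebrain, of which the hypothalamus is a part, expresses almost none of them. White fat of the trunk is made by mesenchymal cells, which keep the Hox code of their position.

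No genome sequence was used here, so the letters around most of the CpGs are not shown. Promoter windows from RefSeq (GRCm38.p6), each running 250 bases before to 50 bases after a gene start, were used to place the CpGs against gene starts. The 4 windows below were chosen because the first holds a member of the set, the second stands in the HoxB cluster, and the others belong to genes with 10 and 8 members that all lie outside the window. They are printed 5′ to 3′ along the gene's strand, and capitals mark CpGs measured in all 3 tissues.
Gm29678, chr1:190403398-190403697, plus strand: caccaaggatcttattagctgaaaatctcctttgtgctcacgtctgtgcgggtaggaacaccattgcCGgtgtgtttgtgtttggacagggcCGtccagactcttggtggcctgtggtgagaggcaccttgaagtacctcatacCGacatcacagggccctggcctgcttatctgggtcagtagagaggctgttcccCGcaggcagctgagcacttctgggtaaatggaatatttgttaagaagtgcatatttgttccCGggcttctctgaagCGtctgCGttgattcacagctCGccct
Gm51876, chr11:96269002-96269301, minus strand: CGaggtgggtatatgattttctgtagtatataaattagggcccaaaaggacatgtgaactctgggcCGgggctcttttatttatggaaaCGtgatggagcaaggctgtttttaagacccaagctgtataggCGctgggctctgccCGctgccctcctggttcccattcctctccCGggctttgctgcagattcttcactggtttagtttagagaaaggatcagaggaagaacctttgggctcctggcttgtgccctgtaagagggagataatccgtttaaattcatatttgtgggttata
Irs2, chr8:11008880-11009179, minus strand: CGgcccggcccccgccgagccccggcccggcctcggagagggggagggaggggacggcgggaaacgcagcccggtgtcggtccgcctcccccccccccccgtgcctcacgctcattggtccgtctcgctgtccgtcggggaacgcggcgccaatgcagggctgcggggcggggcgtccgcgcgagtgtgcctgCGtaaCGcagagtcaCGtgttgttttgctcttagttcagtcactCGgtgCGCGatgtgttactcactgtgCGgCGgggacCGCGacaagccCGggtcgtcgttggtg
Gata2, chr6:88193641-88193940, plus strand: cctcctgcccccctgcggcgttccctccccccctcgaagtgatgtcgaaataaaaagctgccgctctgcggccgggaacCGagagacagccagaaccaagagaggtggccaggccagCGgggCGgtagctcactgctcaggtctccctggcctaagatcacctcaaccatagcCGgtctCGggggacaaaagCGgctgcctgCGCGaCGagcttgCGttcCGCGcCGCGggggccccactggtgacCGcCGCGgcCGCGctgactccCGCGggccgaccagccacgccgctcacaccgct
The first capitals of the Gm29678 window, 68 bases from its 5′ end, are the only member of the set inside a promoter window, at chr1:190403465. Its level was 67.5% and 75.1% in the BPA and control pools of adipose tissue, 27.1% and 27.3% in hypothalamus, and 30.1% and 34.9% in liver. The 8 measured CpGs of that window averaged 74.8% in adipose tissue, 42% in hypothalamus and 65.5% in liver, so the window as a whole was methylated in liver too. In the Gm51876 window, the 6 measured CpGs averaged 38.7% in adipose tissue, 7.30% in hypothalamus and 9.56% in liver. The windows of Irs2 and Gata2 were nearly free of methylation in every tissue: the 12 measured CpGs of Irs2 averaged 1.23%, 0.807% and 0.672% in adipose tissue, hypothalamus and liver, and the 21 of Gata2 averaged 0.888%, 1.91% and 1.40%.

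Because levels chose the CpGs, they are given as a description without a test. The median level over the 237 CpGs was 70.6% in adipose tissue, 23.6% in hypothalamus and 23.9% in liver. By pool, the medians were 72.9% for BPA and 69.9% for control in adipose tissue, 22.7% and 23.4% in hypothalamus, and 25.2% and 23.4% in liver. The gap between adipose tissue and the higher of the other tissues had a median of 45.2 percentage points and spanned 30.7 to 94.4 points. Most members were therefore intermediate in all tissues rather than fully on or off: 41 reached 80% and 10 reached 90% in adipose tissue, while 38 were at or below 10% in hypothalamus, 16 in liver and 10 in both. In bulk tissue, a level of 70% on every cell cannot be told apart from full methylation in a part of the cells.

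Both pools of adipose tissue were above all 4 other pools at each of the 237 CpGs, and the narrowest such distance was 17.8 points. The thresholds themselves were met in the BPA pools taken alone by 188 members, in the control pools alone by 163, and in each of them by 126. Depth at the members was lower than at eligible CpGs in general, with medians of 187 and 152 reads in the BPA and control pools of adipose tissue against 242 and 213 over all eligible CpGs. The exact Clopper-Pearson 95% interval of a member's level had a median width of 13 and 14.5 points in these pools, and between 13.2 and 16.1 points in the pools of the other tissues. These intervals cover counting error only, and amplified reads that carry no molecular identifier may stem from the same molecule. Just inside the limits were chr11:97139133 in Tbkbp1, at 65.1% in adipose tissue, chr8:11006138 in Irs2, at 34.9% in hypothalamus, and chr4:130972404, at 34.8% in liver. Just outside were chr19:45476050, at 64.996% in adipose tissue, chr15:64153117, at 35.05% in hypothalamus, and chr9:13534386, at 35.1% in liver.

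**Figure D1:**
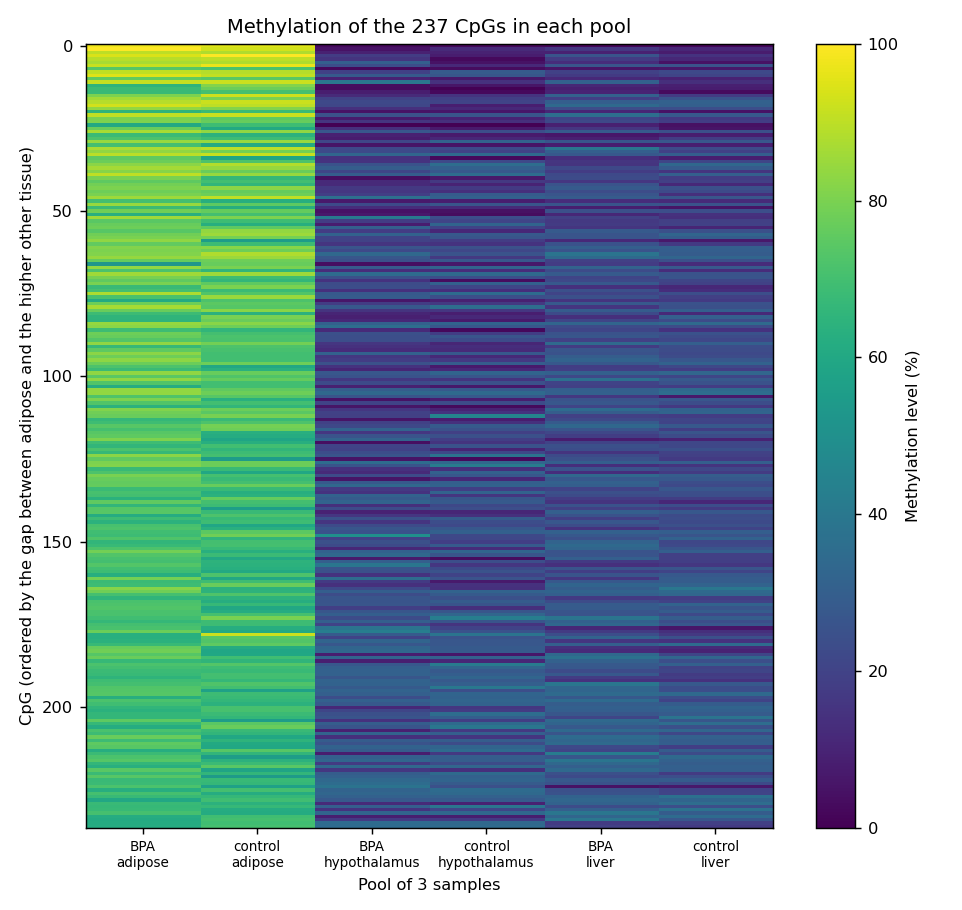
Methylation level in percent (colour) of each of the 237 CpGs (rows, ordered by the gap between adipose tissue and the higher other tissue) in the BPA and control pool of each tissue (columns, 3 samples per pool). The adipose columns are bright in every row, with pool medians of 72.9% and 69.9%, and the other columns stay dark, with medians between 22.7% and 25.2%.

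Many of the CpGs were neighbours. Joined where they lay within 100 bp of each other, they formed 156 regions, of which 118 held 1 member, 22 held 2 and 16 held at least 3, the last with 75 members in all. The members fell in or within 5 kb of 145 genes, 111 of them protein-coding, out of 32346 genes with an eligible CpG (0.448%), and 10 genes held at least 5 members. CpGs on a shared fragment are read from the same molecules, so members of a region are not independent measurements.

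The densest region lay in Sipa1, which encodes a GTPase-activating protein that switches off the small G protein Rap. At chr19:5654772-5655014, 18 of 27 eligible CpGs within 243 bp were members. Their reads were methylated at 77.4% of 3789 in the BPA pool and 70.7% of 3142 in the control pool of adipose tissue. In hypothalamus the shares were 17.2% and 16.9%, and in liver 28.7% and 24.2%. The mean gap of these members was 48.7 points, close to the median of the whole set. The 8 other eligible CpGs within 1000 bp of the region averaged 68.9% in adipose tissue, 22.3% in hypothalamus and 40.7% in liver. They include chr19:5655119 and chr19:5655160, which are members outside this region, so this average is not free of the choice. Over all 90 eligible CpGs assigned to Sipa1 the averages were 57.5%, 45.3% and 46.9%, so the tissues were closer over the gene as a whole.

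Irs2 encodes an adaptor that relays the signal of the insulin receptor, and held 10 members. Of these, 6 lay at chr8:11004695-11004808, where 77.8% of reads in the BPA pool and 76.4% in the control pool of adipose tissue were methylated. The shares there were 25% and 23.7% in hypothalamus and 22.8% and 26.1% in liver. A further 3 members at chr8:11006061-11006139 had 81.2% and 77.7% in adipose tissue, 26.6% and 32.4% in hypothalamus, and 20.7% and 17.3% in liver. All 10 lay on the gene's side of the promoter window shown above, which was unmethylated in every tissue. Irs2 was the only gene with a member among 36 insulin and IGF signalling genes with eligible CpGs.

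Tbkbp1 encodes a protein that binds the kinase TBK1 of innate immune signalling, and held 10 members in a pair of adjoining stretches. At chr11:97138824-97138960, 6 members had 74.5% and 60.5% in the BPA and control pools of adipose tissue, 27.1% and 25.9% in hypothalamus, and 21.0% and 22.8% in liver. At chr11:97139088-97139154, 4 members had 76.7% and 59.3% in adipose tissue, 34.0% and 24.8% in hypothalamus, and 9.71% and 9.56% in liver. The pools of adipose tissue stood farther apart here than in Sipa1 or Irs2.

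Among genes of intracellular anchoring and membranes, Akap6, which encodes an anchor of protein kinase A in muscle and brain, held 6 members. The 5 of them at chr12:52700209-52700378 had 79.4% and 76.3% in the BPA and control pools of adipose tissue, 13.4% and 11.8% in hypothalamus, and 29.3% and 26.3% in liver. Shisal1 held 6 members at chr15:84417122-84417236, with 80.4% and 65.2% in adipose tissue, 28.2% and 31.5% in hypothalamus, and 21.2% and 24.6% in liver. The 106 eligible CpGs of Akap6 averaged 66.1% in adipose tissue, 52.3% in hypothalamus and 64.0% in liver, and the 166 of Shisal1 averaged 56.0%, 49.6% and 57.8%. Over the whole genes liver was thus close to adipose tissue, and the members mark short stretches where both other tissues were low. Rtn1, a reticulon of the endoplasmic reticulum of neurons, and Agap3, a GTPase-activating protein for Arf, held 5 members each, at mean levels of 73.9% and 70.2% in adipose tissue, 19.7% and 28.3% in hypothalamus, and 25.7% and 24.5% in liver.

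Among transcription factors outside the Hox family, Gata2, a zinc finger factor of blood and neural progenitors that restrains fat cell formation in preadipocytes, held 8 members, at mean levels of 68.9% in adipose tissue, 11.2% in hypothalamus and 25.4% in liver. Its 213 eligible CpGs averaged 26.7%, 8.06% and 14.3%, so adipose tissue was above the other tissues beyond the members. The members lay on either side of unmethylated stretches. Ebf1, a factor of B cells and adipocytes, held 3 members with means of 68.3%, 24.5% and 21.5% in adipose tissue, hypothalamus and liver. Single members were assigned to Foxc2, a forkhead factor of mesenchyme and vessels, at 68.1% and 63.3% in the BPA and control pools of adipose tissue, and to Hlx, a homeobox factor of visceral mesenchyme, at 72.0% and 59.7%. The orphan nuclear receptor genes Nr5a2 and Esrrb had 1 member each, at 72.6% and 74.1% for Nr5a2 and at 86.9% and 87.9% for Esrrb.

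Signalling and metabolic genes with members were few. The growth factor gene Tgfb1 held 3, at means of 73.2% in adipose tissue, 17.1% in hypothalamus and 18.0% in liver, and the thromboxane receptor gene Tbxa2r held 3, at 71.3%, 21.6% and 31.6%. Mblac2 and Aff3 held 3 each. No member was assigned to any of the 15 adipocyte, 17 hepatocyte, 20 neuron, 16 endothelial, 18 leukocyte or 12 epididymis and testis marker genes with eligible CpGs, nor to the 76 genes of extracellular matrix and its proteases, the 47 imprinted genes, the 27 germline genes or the 19 genes of the methylation machinery. Over all genes the share with a member was 0.448%, so an absence from a list of this size is near that background.

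**Figure D2:**
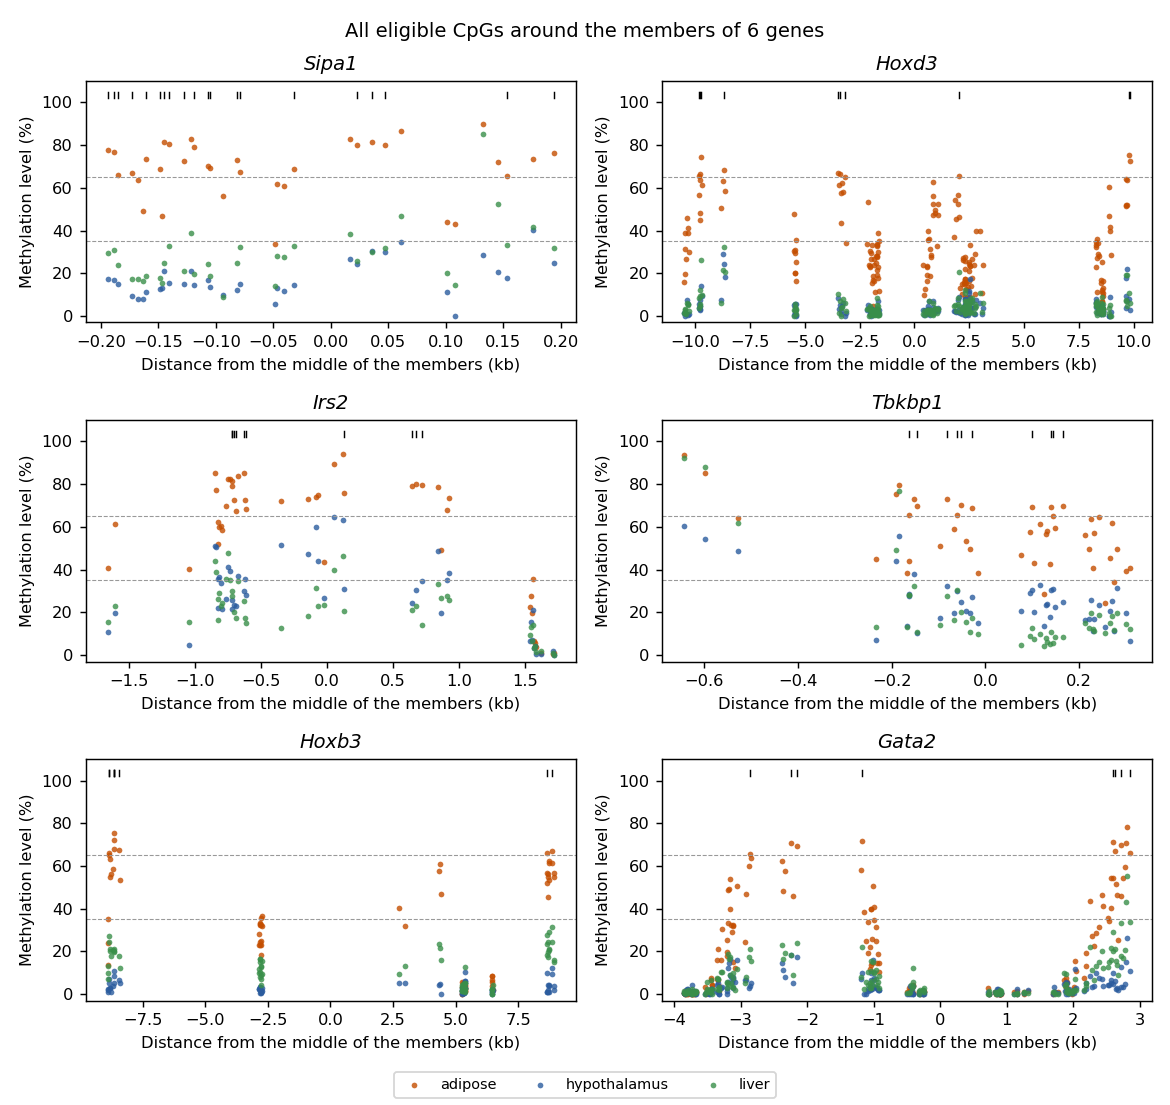
Methylation level in percent (vertical axis) of every eligible CpG around the members of 6 genes, against distance in kb from the middle of the members (horizontal axis); ticks at the top mark members, dashed lines the limits of 65% and 35%, and colours the tissues with both pools joined. In Sipa1 most adipose points stand apart from both other tissues in a single stretch. At its CpG 132 bp from the middle, liver (85.2%) comes close to adipose tissue (89.7%). In Hoxd3, Hoxb3 and Gata2 the adipose points are high in several places, in Gata2 on either side of stretches near 0 in all tissues.

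The Hox clusters held 29 members (12.2%), although only 2939 eligible CpGs (0.230%) lay in them. HoxD had 14 of 796 eligible CpGs, HoxB 10 of 729, HoxA 5 of 759 and HoxC 0 of 655. Of 39 Hox genes with eligible CpGs, 9 had a member assigned (23.1%), against 0.448% of all genes. The base of 0.230% counts CpGs that could not qualify: 519208 of the 1275720 eligible CpGs were at most 35% in both hypothalamus and liver. None of the 5 mirrored sets had a CpG in any Hox cluster, but each of their rules needs at least 65% in hypothalamus or liver. In both tissues 747 of 759 eligible CpGs of HoxA, 684 of 729 of HoxB, 653 of 655 of HoxC and 794 of 796 of HoxD were at most 35%. That absence was thus largely set by these levels and is no contrast to the members. These shares are descriptions, since the members were chosen by the levels and neighbouring CpGs share reads.

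Hoxd3 held 10 members spread over its span. The pair at chr2:74747935 and chr2:74747985 was the most separated. At chr2:74747985 the level was 73.6% of 318 reads and 71.6% of 236 reads in the BPA and control pools of adipose tissue, with 95% intervals of 68.4 to 78.3% and 65.4 to 77.3%. In hypothalamus it was 2.02% and 3.20%, and in liver 5.78% and 6.64%, so this CpG was almost free of methylation outside fat. At chr2:74734988 no methylated read was seen in hypothalamus, in 39 reads of the BPA pool and 26 of the control pool, which allows a level of up to 7.69% and 11.5%. The level there was 60.3% and 69.0% in adipose tissue and 8.62% and 4.35% in liver.

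At the other Hox members liver often lay between adipose tissue and hypothalamus. In Hoxb3, 8 members averaged 68.4% in adipose tissue, 8.24% in hypothalamus and 23.9% in liver. In Hoxa7, 4 members averaged 77.2%, 15.8% and 20.1%, and the highest of them, chr6:52219101, which is also assigned to Hoxa9, reached 88.7% and 91.8% in the BPA and control pools of adipose tissue. The 3 members shared by Hoxd8, Hoxd9 and the long noncoding RNA gene Gm38462 averaged 71.3%, 8.99% and 20.8%, and the 3 shared by Hoxd4 and Hoxd3 averaged 68.8%, 8.93% and 15.6%. Hoxa3 had 1 member, at 65.7% and 68.7% in adipose tissue.

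By the mean over all eligible CpGs, adipose tissue was above the other tissues in each cluster, but by the median it was not above liver in HoxB. The mean over all eligible CpGs of HoxA was 11.1% in adipose tissue, 4.61% in hypothalamus and 5.96% in liver. In HoxB the means were 15.3%, 7.98% and 10.3%, in HoxC 8.67%, 4.07% and 4.68%, and in HoxD 12.4%, 3.06% and 3.69%. The medians lay between 3.51% and 4.70% in adipose tissue, 2.02% and 2.70% in hypothalamus, and 2.25% and 4.09% in liver, so most CpGs of the clusters had little methylation in any tissue. In HoxB the median was 3.63% in adipose tissue, 2.45% in hypothalamus and 4.09% in liver. HoxC, without a member, showed the same order of means.

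Along the genome, 191 members (80.6%, exact 95% interval 75.0 to 85.4%) lay in a gene body, against 67.4% of eligible CpGs, and 21 members (8.86%) lay more than 5 kb from a gene, against 20.4%. The interval treats the 237 members as independent, although they formed only 156 regions, so it is too narrow. Few members lay at gene starts: 3 of 232 (1.29%) were within 250 bp of a start, against 15.1% of eligible CpGs, and 24 (10.3%) within 1000 bp, against 28.5%. Gene starts of chromosome 18, with 5 members, were not used here. Between 250 and 5000 bp from a start the share was 30.6%, against 24.2%. The shares of eligible CpGs given here count CpGs whose levels could not meet the rule, so they are not like for like. A member had to be strongly methylated in adipose tissue. Over the 10718 promoter windows of all genes with a measured CpG, the median level in adipose tissue was only 0.645%. The low share of members at gene starts was thus largely set by the rule. The median number of other eligible CpGs within 100 bp was 4 for members and 5 for all eligible CpGs. Chromosomes 11, 2, 19 and 8 held the most members, with 30, 25, 23 and 23, and 20 of the 23 on chromosome 19 were those of Sipa1.

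The promoters of genes with members were mostly unmethylated in all tissues. RefSeq windows matched 87 of the 145 genes, and 74 of their 126 windows held a measured CpG. The medians over these windows were 0.821% in adipose tissue, 0.884% in hypothalamus and 1.20% in liver, and 53 windows (71.6%) were under 10% in each, against 82.0% of 10718 windows over all genes. The motif CCGG, searched in the window as printed and identical on the opposite strand, was present in 80.2% of the windows of genes with members and in 53.5% of all windows. It is the cutting site of MspI, so its presence also decides where RRBS measures.

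The CpGs around the members were examined next. They did not choose the set, but at up to 100 bp they can share fragments and reads with members. Their agreement with the members is therefore not independent of the choice, and shares for the surroundings of other eligible CpGs are not given here. Other eligible CpGs that were not members lay within 100 bp of 213 members. Their average had a median of 63.7% in adipose tissue, 23.9% in hypothalamus and 26.2% in liver. It was highest in adipose tissue beside 194 of the 213 members, and by at least 20 points beside 167. For most members the surrounding CpGs therefore showed the same order of tissues. Beside 6 members, including those at chr2:74734988 in Hoxd3, in Hoxa3 and at chr5:24483703 in Agap3, the neighbours were at most 35% in every tissue.

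A minority lay within methylated surroundings, some of them beside another member. Beside 26 members the other CpGs averaged at least 65% in all 3 tissues, and these included 8 of the 10 members with the largest gaps. This division, like the genes named only for it, was chosen after the values were seen. Their median gap was 58.3 points, against 44 points for the other 187 members with such neighbours. They were also read less in adipose tissue, with a median of 87 reads over both pools against 358, while the medians were 136.5 against 219 in hypothalamus and 231 against 284 in liver.

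The largest gap of all, 94.4 points, belonged to this minority. At chr7:100662663, near Plekhb1, the level was 97.5% of 323 reads and 95.2% of 272 reads in the BPA and control pools of adipose tissue. It was 1.98% of 11581 and 2.10% of 10292 reads in hypothalamus, and 1.88% of 16520 and 1.81% of 16646 reads in liver. Its neighbours averaged 89.0% in adipose tissue, 79.1% in hypothalamus and 79.2% in liver. Depth also differed: over both pools the CpG had 21873 reads in hypothalamus and 33166 in liver, where its neighbours had a median of 573.5 and 841, but 595 in adipose tissue, where its neighbours had 593.5. The reads at this CpG outside fat thus do not match those of the CpGs beside it in number or in level, and the part of depth in its gap was not tested.

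Other members of this minority were the 3 near Platr14 and the snoRNA gene Gm22439 at chr2:104576006-104576063, with 72.3% and 84.1% in the BPA and control pools of adipose tissue, 3.91% and 7.97% in hypothalamus and 14.6% and 10.5% in liver. Each rested on 47 to 50 reads over both pools of adipose tissue. The Esrrb member at chr12:86508323 had 86.9% of 412 and 87.9% of 322 reads in adipose tissue, but only 23 and 21 reads in hypothalamus, with 30.4% and 4.76%, and 12.8% and 4.76% in liver. Its neighbours averaged 89.5%, 87.0% and 86.3%. Among the 211 members left without the 26, the largest gap was 66.5 points, at chr2:74747985 in Hoxd3. At the other end of the set, the smallest gap was 30.7 points at chr12:105835066 in Papola, with 62% and 70.6% in adipose tissue, 35.1% and 34.7% in hypothalamus, and 19% and 16.8% in liver.

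**Figure D3:**
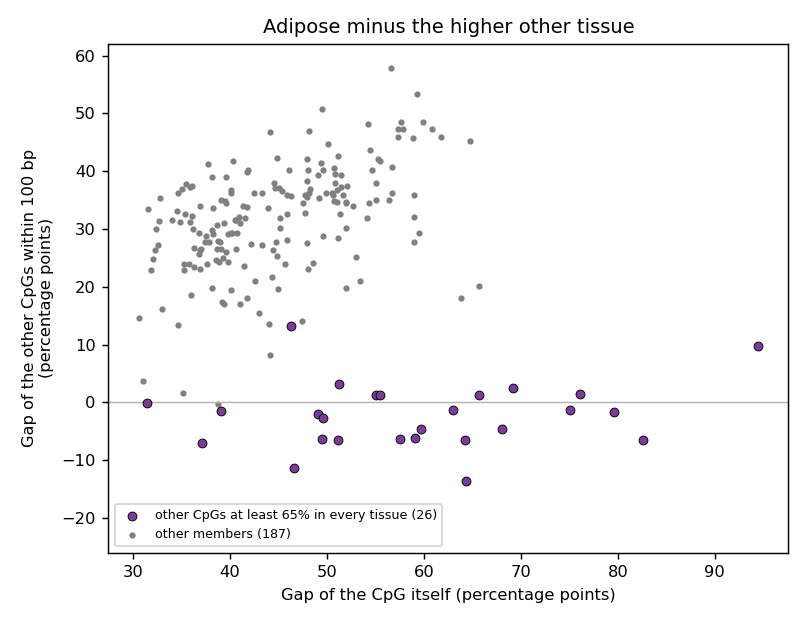
For each of 213 members, the gap between adipose tissue and the higher other tissue at the CpG itself (horizontal axis, percentage points) and for the mean of the other eligible CpGs within 100 bp (vertical axis, percentage points). The grey points, 187 members, mostly lie well above 0 on the vertical axis, while the 26 purple points, whose neighbours are at least 65% in every tissue, mostly lie near or below 0 and reach the largest gaps, up to 94.4 points.

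The rule set no order between liver and hypothalamus. Both pools of liver were above both pools of hypothalamus at 99 members (41.8%), against 18.1% of eligible CpGs that are at most 35% in both tissues and 19.5% of all eligible CpGs. The opposite order held at 63 members (26.6%), against 17.6% and 36.5%. The levels in these bases were not matched to the members, whose medians were 23.6% in hypothalamus and 23.9% in liver. The shares are therefore not like for like. The median difference, liver minus hypothalamus, was 2.30 points. In the Hox clusters liver was above hypothalamus in all pools at 23 of 29 members, with a median difference of 8.51 points, and below it at 1. The same share over all eligible CpGs of the clusters is not given here. Elsewhere the counts were 76 and 62 of 208, with a median difference of 0.91 points. The median Hox member was at 67.4% in adipose tissue, 8.47% in hypothalamus and 20.6% in liver, and the median of the other members at 71.1%, 25.1% and 24.3%. With 1 pool for each group and tissue, no test over animals was possible, and members of a cluster share fragments.

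**Figure D4:**
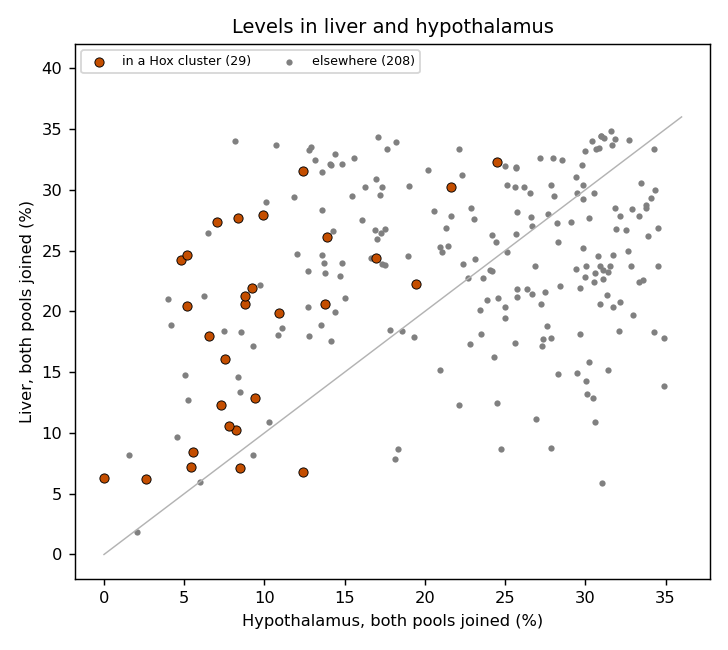
Level of each of the 237 CpGs in hypothalamus (horizontal axis, percent) and in liver (vertical axis, percent), both pools joined, with the line of equal levels. The 29 members in Hox clusters (orange) lie mostly above the line, with medians of 8.47% in hypothalamus and 20.6% in liver, while the 208 others (grey) lie on both sides of it.

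Whether prenatal BPA went with a different level at these CpGs was asked in each tissue. The rule joined the pools and did not use their difference, but it weighted them by reads, so the deeper pool counted more in the choice. Median reads at members were 187 and 152 in the BPA and control pools of adipose tissue, 104 and 96 in hypothalamus, and 135 and 144 in liver. How far this weighting bears on the differences below was not tested. The deposited p-value of Fisher's exact test was adjusted by the Benjamini-Hochberg procedure over all sites, and calls needed both an adjusted p below 0.05 and pools at least 5 points apart. In adipose tissue 9 members were called (3.80%), 8 with the higher level in the BPA pool and 1 with the lower. All 9 met the 65% limit only through their higher pool. The control pool was at 55.3% to 60.6% at the 8, and the BPA pool at 63% at the other. The share called among members is therefore not independent of the choice, and is not like for like with the shares that follow. Over all 1876099 sites tested in adipose tissue 0.535% were called, 0.252% with BPA higher and 0.283% with BPA lower. Among eligible CpGs within the members' range of adipose levels 0.85% were, 0.417% with BPA higher. Such a range, here and below, runs from the lowest to the highest member, in adipose tissue from 65.1% to 96.5%. The spread of levels within it was not matched to the members, so shares in it are not like for like. The test compares pooled reads and not animals. Squared differences between the adipose pools averaged 2.02 times the variance from counting error. This excess was taken over tested sites that were neither almost unmethylated nor almost fully methylated. With p-values scaled by it no member was called, against 0.00144% of all sites. By the authors' own credible difference of at least 5 points, which is read from the authors' deposited table, 24 members passed in adipose tissue, against 2.99% of all sites.

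The called CpGs with BPA higher lay in 5 genes and 1 place far from genes. In Sipa1, chr19:5654934 had 77.0% of 296 reads in the BPA pool and 59.6% of 250 in the control pool, a difference of 17.4 points (95% Newcombe interval 9.62 to 25, adjusted p = 0.00992 by Fisher's exact test). At chr19:5654887, in the same region, the levels were 74.6% and 58.3% (adjusted p = 0.0236, Fisher's exact test). Of the 20 Sipa1 members 18 were higher in the BPA pool of adipose tissue, with a median difference of 5.5 points. In liver 17 of them were higher in the BPA pool and in hypothalamus 13, with medians of 4.35 and 1.1 points. Members of a region are read from the same molecules of the same pools, so counts of members per gene, here and below, are not counts of independent sites.

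In Tbkbp1, chr11:97139153 had 80.6% of 160 reads in the BPA pool and 58.6% of 152 in the control pool, a difference of 22.0 points (interval 11.9 to 31.7, adjusted p = 0.0145, Fisher's exact test), and chr11:97139129 had 78.4% and 59.2% (adjusted p = 0.0260, Fisher's exact test). All 10 Tbkbp1 members were higher in the BPA pool of adipose tissue, with a median difference of 15.75 points. In Hoxd3, chr2:74729458 had 75.1% of 342 reads and 60.6% of 312, a difference of 14.5 points (interval 7.42 to 21.6, adjusted p = 0.0261, Fisher's exact test). It was the only called member in a Hox cluster, although 8 of 10 Hoxd3 members and all 8 Hoxb3 members were higher in the BPA pool.

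In Tns2, which encodes the focal adhesion protein tensin 2, chr15:102107141 had 75.1% of 201 reads in the BPA pool and 55.7% of 158 in the control pool (adjusted p = 0.0336, Fisher's exact test). In Slc36a1, a proton-coupled amino acid transporter gene, chr11:55205858 had 73.7% of 285 reads and 56.1% of 223 (adjusted p = 0.0205, Fisher's exact test). At chr2:8025057, more than 5 kb from any gene, the levels were 83.5% of 115 reads and 55.3% of 103, the widest upward difference of the set at 28.2 points (interval 16.0 to 39.3, adjusted p = 0.00704, Fisher's exact test). The CpG with the lower level in the BPA pool was chr13:43720441 near Gm20751, with 63% of 108 reads against 91.8% of 49, a difference of -28.8 points (interval -39.5 to -14.9, adjusted p = 0.0312, Fisher's exact test). It rested on the fewest reads of the 9. Without members alone in their region, an exclusion chosen after the values were seen, 4 called members remained, 2 each in Sipa1 and Tbkbp1.

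Over all 237 members the median difference in adipose tissue, BPA minus control, was 2.8 points, with 153 members higher in the BPA pool and 83 lower, and a range of -28.8 to 28.2 points. Among eligible CpGs in the members' range of levels the median was -0.2 points and 47.0% were higher in the BPA pool. At an unadjusted p under 0.05 there were 53 members (22.4%), 39 of them higher in the BPA pool, against 10.1% of all sites tested and 14% of eligible CpGs in that range of levels. The median over regions was 1.37 points, less than that over CpGs. For it, reads were summed within each region before the difference was taken, and each region counted as 1 whatever its number of members. What lowered the median was not tested. Shisal1, with no called CpG, had 6 of 6 members higher in the BPA pool and a median difference of 14.1 points, while at Rtn1 and Irs2 the medians were -1.4 and 2.25 points.

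In hypothalamus 0 members were called, against 0.00586% of 1569349 sites, and 13 (5.49%) had an unadjusted p under 0.05, against 3.41% of all sites and 2.2% of eligible CpGs in their range of levels. The median difference was 0.2 points, with 120 members higher and 114 lower in the BPA pool, against a median of 0.2 points and 53.3% higher among eligible CpGs in their range of levels. In liver 0 members were called, against 0.0258% of 1628817 sites, and 24 (10.1%) had an unadjusted p under 0.05, against 4.21% and 6.52%. The ranges ran from 0 to 34.9% in hypothalamus and from 1.84% to 34.8% in liver, while the median member was at 23.6% and 23.9%. Shares of low p-values depend on the level, so these ranges are not matched backgrounds. By the credible difference of the authors' deposited table, 7 members passed in hypothalamus, against 0.858% of sites, and 5 in liver, against 0.995%. Of the 24 in liver with an unadjusted p under 0.05, 23 were higher in the BPA pool. Over all members in liver the median difference was 1.4 points, with 142 higher and 94 lower in the BPA pool, against a median of -0.1 points and 48.5% higher among eligible CpGs in their range of levels. At the called Sipa1 CpG chr19:5654934 the levels were 13.3% and 15.6% in the BPA and control pools of hypothalamus and 35.1% and 31.1% in liver. At the called Tbkbp1 CpG chr11:97139153 they were 32.0% and 18.6% in hypothalamus and 7.77% and 9.52% in liver.

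Whether the difference itself differed between tissues was tested at each site by setting the log odds ratios of both tissues against each other in a Wald test. For adipose tissue against hypothalamus 0 members passed at an adjusted p under 0.05, against 0.0306% of 1389958 sites, and 25 had an unadjusted p under 0.05, against 5.73% of sites. For adipose tissue against liver 0 members passed, against 0.057% of 1495385 sites, and 38 had an unadjusted p under 0.05, against 6.82%. The smallest adjusted p of a member was 0.408 against hypothalamus and 0.159 against liver. The calls in adipose tissue were therefore not shown to differ from the other tissues.

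**Figure D5:**
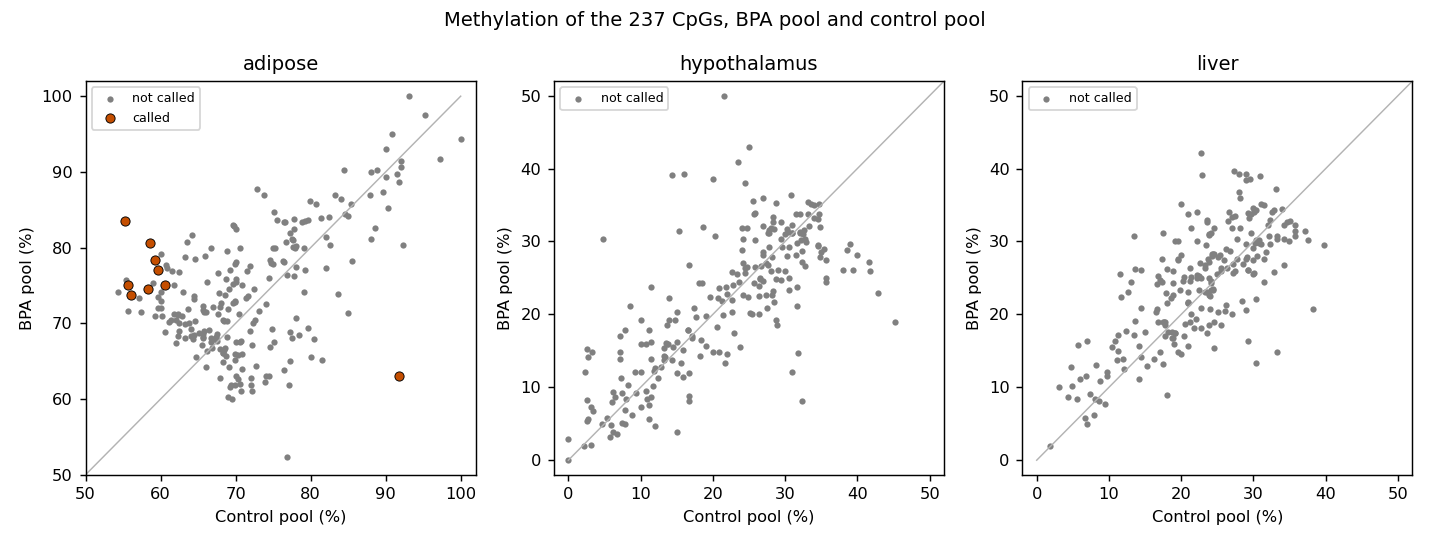
Level of each of the 237 CpGs in the control pool (horizontal axis, percent) and in the BPA pool (vertical axis, percent), in a panel for each tissue, with the line of equal levels. In adipose tissue 8 called CpGs (orange) lie above the line, with 73.7% to 83.5% in the BPA pool and 55.3% to 60.6% in the control pool, and 1 lies below it; no CpG was called in hypothalamus or liver.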

How the data were processed

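RRBS libraries of 18 samples were made from 100 ng of DNA each, per the labels' protocols, and aligned with BSMAP to GRCm38 (mm10), per the submitters' processing notes; its version and any removal of PCR copies are not given in the sources used here. The authors deposited 1 table per tissue. Per the file headers, it gives the count of reads covering each CpG in each pool, the methylated fraction, rounded to 3 significant digits, and the p-value of a Fisher's exact test of the pools against each other. The deposited nominal and credible differences between pools, treated as a score, are the authors' own comparison, and only the credible one was used, as an alternative. Fisher p-values recomputed from counts and fractions were within 1% of the deposited ones at 99.7% to 99.9% of about 5235 sites checked per table. Listed sites had at least 3 reads in each pool.

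A minimum of 10 reads in each pool was set for the tests. The Wald test added 0.5 to each cell and used sites with at least 20 reads in the pools of both tissues. The procedures were tested on simulated data that held counting error only, without the excess of 2.02 times seen between the adipose pools. That simulation therefore does not show how calls hold under the excess. Python 3.11.15, pandas 2.3.3, numpy 2.4.6, scipy 1.17.1 and matplotlib 3.10.9 were used. Positions are 1-based. Genes came from RefSeq (GRCm38.p6, without strand, exons or introns): a CpG was assigned to every gene whose body holds it, otherwise to genes within 5 kb. The 23 gene lists had 885 entries, of which 884 matched.

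The CpGs and the lists were chosen with earlier results of these data known. Named genes are the 25 with most members, up to 2 more per list, those of every called member, the 6 regions with most members, and the CpGs with the largest and smallest gap; Gm29678, Gm51876 and values shown only to contrast with them were chosen after their values were seen. A few genes that the rule names are not reported here. Alternatives changed read minimums, level thresholds, pools, distances, the minimum difference, the scale of p-values and the genes counted.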

Additional observations from a re-analysis of the deposited data

How the results depend on the processing

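The number of CpGs depended on the thresholds: 75 at 70% and 30%, and 643 at 60% and 40%, against 237. It stayed within 1.5 times under the other settings run: 290 at 10 reads and 165 at 50 reads per pool, 289 from the BPA pools alone and 261 from the control pools alone, 236 without the deepest CpGs and 211 without the 26 CpGs in methylated surroundings. In adipose tissue 8 to 9 members were called under other read minimums, minimum differences and sets of sites adjusted over. The count was 0 with p-values scaled by the excess over counting error, 4 without members alone in their region (chosen after seeing the data), and 24 by the authors' credible difference of at least 5 points (2.99% of all sites). By that last measure 7 members passed in hypothalamus (0.858% of all sites) and 5 in liver (0.995%), where the other settings gave 0. The median difference in adipose tissue was 1.37 to 3.15 points over its alternatives. The members joined into 173 regions with gaps of up to 50 bp and 134 with up to 500 bp, and 69 genes held at least 2 members. Within 50 bp, in place of 100 bp, the median number of other eligible CpGs was 2. No paired analysis was possible because the values are pools without replicate numbers; for the same reason no replicate could be left out, and the spread between animals is unknown.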
